A study of Mus musculus with 3 samples.

Results

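The genes described here are the nuclear-encoded subunits of the mitochondrial oxidative phosphorylation complexes, and the data are ribosome footprints of cultured mouse cortical neurons. They were chosen by name, without use of any measured value: protein-coding genes whose symbols belong to the subunit families of complex I (Nduf), complex II (Sdh), complex III (Uqcr and Cyc1), complex IV (Cox4 to Cox8) and complex V (Atp5), plus Ndufab1 and the electron carrier Cycs. Among the 20823 genes for which all 3 transcript regions (5′ UTR, coding sequence or CDS, and 3′ UTR) were counted, this rule found 87, namely 36 of complex I, 4 of complex II, 9 of complex III, 20 of complex IV, 17 of complex V and cytochrome c. The name rule also took in Atp5s, a factor related to ATP synthase that is not a structural subunit, and Cox7a2l, a paralog of Cox7a2 known for its place in respiratory supercomplexes. Ndufa4 and its paralog Ndufa4l2 were placed with complex IV, where the Ndufa4 protein is now assigned.

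Ribosome profiling sequences the stretches of mRNA that ribosomes shield from nuclease. Primary cortical neurons (cells cultured from mouse cortex, with no genetic change named in the labels) gave 3 libraries, grouped here by the treatment their labels give. The free-text descriptions go against this in part, naming depolarized neurons and an input or pulldown fraction of cytosol or PSD, and this was not resolved. The WT neurons were untreated. The Chx neurons were given cycloheximide, an inhibitor of elongation, for 2 min. The Harr neurons were given harringtonine, which stops ribosomes at the first steps after initiation and lets those already elongating run off, for 2 min and then a short cycloheximide treatment. The rinse and lysis buffers contained cycloheximide in all 3 libraries, so WT was not free of it after harvest. Each library came from 3 pooled dishes and each treatment has 1 library. No difference below therefore has a replicate check or a p-value, and every interval and standard error (SE) covers counting error only.

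The respiratory chain passes electrons from NADH (through complex I) and from succinate (through complex II) to complex III, then by cytochrome c to complex IV, which reduces oxygen. Complexes I, III and IV pump protons, and complex V, the ATP synthase, uses the gradient to make ATP. Most subunits are encoded in the nucleus, made by cytosolic ribosomes and imported, while a small set is encoded in mitochondrial DNA and made by mitochondrial ribosomes. Neurons draw most of their ATP from this pathway.

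Aligned reads numbered 35722483 in Chx, 30219197 in WT and 9754412 in Harr, the shallowest library. The CDSs of the 20823 genes held 20212047, 16673134 and 3774621 reads in the same order. Neuronal marker genes (Map2, Tubb3, Rbfox3, Syn1, Snap25) summed to between 6819 and 9503 reads per 1000000 CDS reads, against 204 to 386 for 4 astrocyte markers, 3.71 to 4.95 for 4 microglial markers and 5.56 to 11.5 for 4 oligodendrocyte markers, of which Mobp and Mog were at 0 in all libraries. The neuronal sum was highest in Harr and the astrocyte sum lowest there, and the part of this in the results below was not tested.

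The first question was how much of the neurons' footprint output lay on these genes. Their CDSs held 439014 reads in Chx, 383195 in WT and 35645 in Harr. This was 2.17% of all CDS reads in Chx (Wilson 95% interval 2.17 to 2.18), 2.30% in WT (2.29 to 2.31) and 0.944% in Harr (0.935 to 0.954). With the reads of all 3 regions added up, the shares were 2.16%, 2.28% and 1.50%. The Harr share was thus the lowest of the 3 on both measures, with a smaller gap when all regions were counted. In pooled cultures, fewer cells of a type and less RNA per cell cannot be told apart, and without matched RNA libraries a footprint level combines the amount of mRNA with the number of ribosomes on it.

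Levels of different genes were compared as CDS density, the number of CDS reads per kilobase of CDS and per 1000000 CDS reads of the library. The median density of the 87 genes was 387 in WT, 371 in Chx and 131 in Harr, against 21.2, 22.0 and 20.7 over the 11459 genes that passed a minimum of 100 CDS reads over the 3 libraries. By WT density, 6 of the 87 genes ranked among the top 50 of the 20823, 13 among the top 100, 45 among the top 500 and 66 among the top 1000. Of the 87, 82 passed the minimum. The median WT density rose from complex I (321) over complex II (465), complex III (515) and complex IV (713) to complex V (836), and this order is a description of 1 library. The 11 common subunits of complex IV, without its tissue-restricted isoforms and Cox7a2l, had a median of 1395, above complex V. In members with under 10% shared words, as defined at the end, the medians were 327, 465, 314, 6.39 and 1127, and the order was lost.

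**Figure D1:**
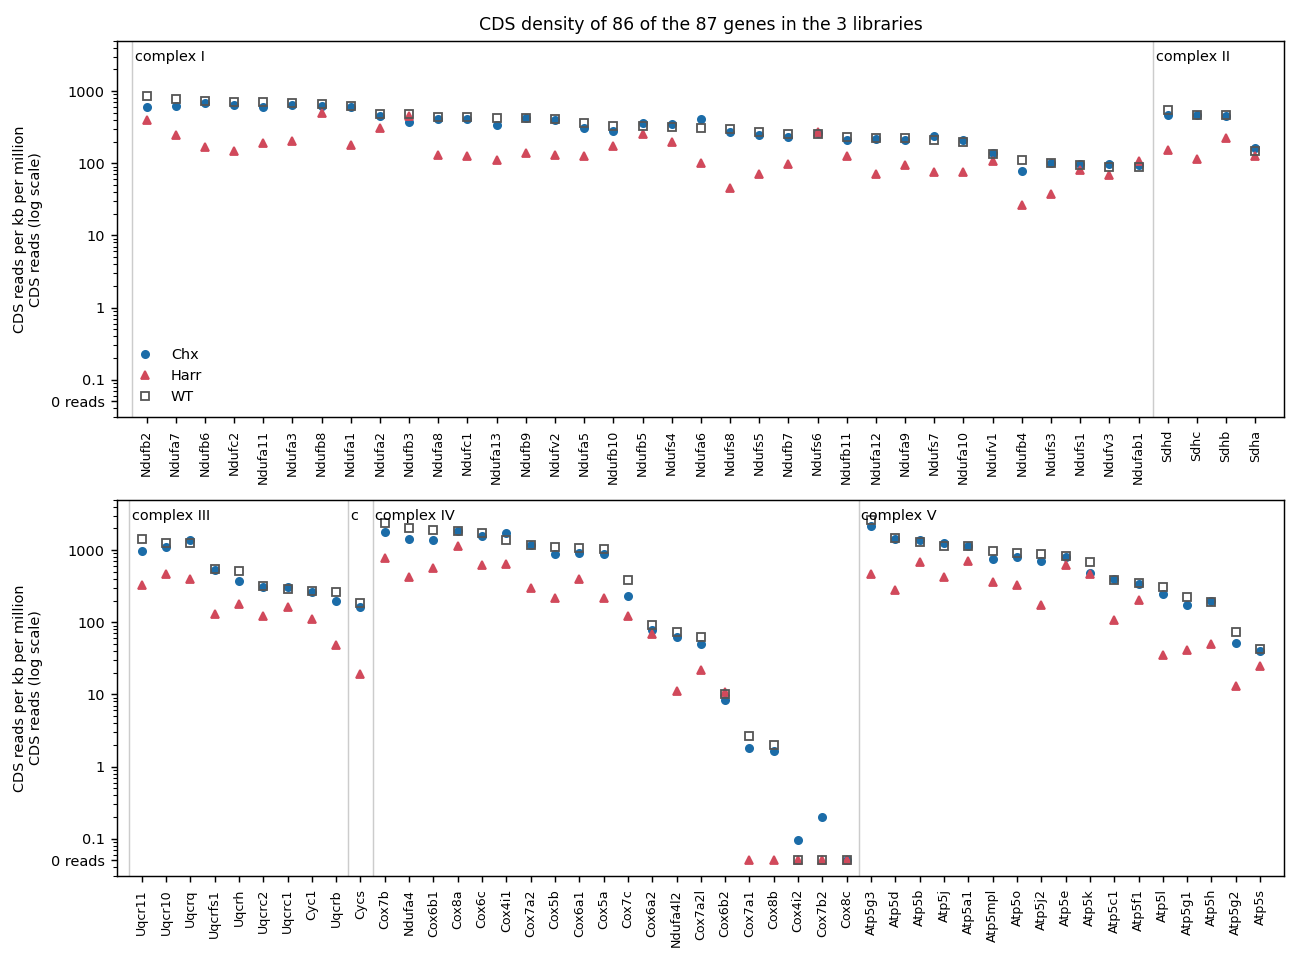
CDS density (reads per kilobase per 1000000 CDS reads, log scale) of 86 of the 87 genes in the Chx (circles), Harr (triangles) and WT (squares) libraries, grouped by complex and sorted by WT density within it; the single gene marked c is Cycs, and points at the bottom tick had 0 reads. Chx and WT points lie close together for nearly all genes, most Harr points lie lower, and 5 complex IV isoforms with few reads stand at the right of their group.

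Within complex I, the small accessory subunits were denser than the core. The 29 accessory genes had a median WT density of 366 and the 7 core genes, which carry the flavin and the iron-sulfur clusters, of 132. Ndufb2 was the densest member in WT, with 601 in Chx, 399.9 in Harr and 851 in WT. Ndufa7 followed with 617, 245 and 789, and Ndufb6 with 678, 166 and 738. The accessory Ndufab1, the mitochondrial acyl carrier protein, was the lowest in WT, at 94.9, 107 and 87.7, and it did not share the low Harr level of the first 3.

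The core genes spanned a narrower range in Chx and WT. Ndufv2, of the NADH-binding module, had 403 in Chx, 128 in Harr and 414 in WT. Its neighbours in that module, Ndufv1 (138, 107 and 132) and Ndufs1 (97.5, 81.3 and 96.2), were lower. Of the subunits that face the quinone site, Ndufs8 had 267, 44.8 and 299, Ndufs7 had 235, 76.5 and 211 and Ndufs3 had 102, 37.1 and 99.4. The Harr density was lower than both others for all 6 of these genes.

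Complex II (succinate dehydrogenase) is the only one with no mitochondrially encoded subunit. The membrane anchors Sdhd (474 in Chx, 155 in Harr and 554 in WT) and Sdhc (473, 114 and 466) and the iron-sulfur subunit Sdhb (448, 224 and 463) had like WT densities. The flavoprotein Sdha was lower in Chx and WT, at 162, 127 and 150, and it had the smallest gap between Harr and the other libraries.

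In complex III, the small subunits Uqcr11 (979 in Chx, 333 in Harr and 1423 in WT), Uqcr10 (1095, 466 and 1271) and Uqcrq (1365, 394 and 1270.4) were the densest. The electron-carrying subunits were lower, with 521, 129 and 546 for the Rieske protein Uqcrfs1 and 266, 109 and 272 for cytochrome c1 (Cyc1). Uqcrb was the lowest of the complex at 195, 48.9 and 261. Cycs had 161, 19.2 and 187, and it was the member with the widest gap between Harr and the others.

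Complex IV held some of the densest genes and the least read ones. Cox7b had 1788 in Chx, 786 in Harr and 2339 in WT, Ndufa4 had 1437, 426 and 2050, and Cox6b1 had 1392, 574 and 1898. Where a subunit has a ubiquitous and a tissue-restricted isoform, most reads lay on the ubiquitous isoform in every library. Cox4i1 had 17794, 1230 and 11865 CDS reads in Chx, Harr and WT, and Cox4i2 had 1, 0 and 0. Cox7a2 had 6048, 283 and 4914, and Cox7a1, the isoform of heart and muscle, had 10, 0 and 12. Cox8a had 7759, 891 and 6435, and Cox8b, also of muscle, had 7, 0 and 7.

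The remaining isoform pairs followed the same order. Cox7b2 had 1, 0 and 0 reads, and Cox8c had none in any library. With 3 counts as the limit that a count of 0 allows, the floor per 1000000 CDS reads was 0.795 in Harr, 0.148 in Chx and 0.180 in WT, so that Cox7a1 and Cox8b at their Chx level would not have been detectable in Harr. The muscle isoform Cox6a2 was not silent, with 469, 76 and 452 reads beside 6202, 506 and 6031 for Cox6a1. The testis isoform Cox6b2 had 45, 11 and 45 reads beside 7342, 565 and 8259 for Cox6b1, and Ndufa4l2 had 331, 11 and 320 beside 7231, 400 and 8510 for Ndufa4. Cox4i2, Cox7a1, Cox7b2, Cox8b and Cox8c are the 5 genes under the minimum, and no ratio is given for them.

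In complex V, Atp5g3, which encodes the c subunit of the membrane rotor, was the densest of all 87 genes in Chx and WT but not in Harr, with a density of 2179 in Chx, 471 in Harr and 2574 in WT. Other genes for the same mature c subunit were lower, with 173, 41.3 and 226 for Atp5g1 and 50.9, 13.2 and 72.5 for Atp5g2. Nearly identical copies of both occur in other transcripts, and reads may be split among them. The catalytic F1 subunits had 1147, 706 and 1127 (alpha, Atp5a1), 1401, 688 and 1308 (beta, Atp5b), 396, 106 and 383 (gamma, Atp5c1), 1410.5, 284 and 1458 (delta, Atp5d) and 814, 615 and 836 (epsilon, Atp5e). On CDS reads, alpha, beta and epsilon kept more of their level in Harr than gamma and delta did. With the 3 regions counted together, the log2 ratios between Harr and Chx were −1.03 (alpha), −0.65 (beta), −0.05 (gamma), −1.34 (delta) and 0.28 (epsilon). Gamma then kept more than alpha and beta.

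ATP synthase holds 3 alpha, 3 beta and, in mammals, 8 c subunits beside single copies of the others, so densities were also divided by the number of copies. Per copy in WT, alpha (376), beta (436), gamma (383), c (359, summed over its 3 genes) and the peripheral stalk subunit b (Atp5f1, 355) lay within a narrow range. Subunit d (Atp5h) was below it at 193, and epsilon (836), OSCP (Atp5o, 918), F6 (Atp5j, 1142) and delta (1458) were above it. These 5 were grouped because their WT values lie close. In Chx they lay between 300.4 (c) and 467 (beta), and in Harr between 65.7 (c) and 235 (alpha). Of the CDS words, 34.6% of gamma, 66.1% of b, 84.6% of d and up to 100% of the c genes also occur in other transcripts, as described at the end. A copy of Atp5f1 held 2548 reads in WT over its whole transcript beside 4565 on its CDS, so the place of b in this range is uncertain.

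The next question was where on these transcripts the footprints lay. Reads were counted by the authors at their 5′ end, so the footprint of a ribosome on the start codon begins in the 5′ UTR. In Harr, 56.9% of the members' reads were in the 5′ UTR (Wilson 95% interval 56.6 to 57.3), 39.3% in the CDS and 3.75% in the 3′ UTR. In Chx these shares were 9.45%, 90.1% and 0.412%, and in WT 6.39%, 92.5% and 1.10%. The Harr 5′ UTR share of all genes was 33.5%, and that of the 3616 genes with a CDS under 600 nucleotides was 55.1%, close to the members' value. Of the members, 65 have a CDS under 600 nucleotides, and the median CDS was 396 nucleotides.

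The 5′ UTR share in Harr differed among the complexes. It was 73.6% for complex III, 68.5% for complex IV, 52.5% for complex I, 47.3% for complex V and 14.8% for complex II, while Cycs alone had 80.2%. In Chx the shares were 13.7%, 11.4%, 9.05%, 8.42% and 1.59%, with 8.13% for Cycs, so the complexes already stood in the same order there and the Harr shares do not rank the size of the shift. In WT each of these shares was under the lowest one in Harr. These are sums over reads, in which a few genes weigh most. Uqcrh, the acidic hinge subunit of complex III, had 2062, 2573 and 1291 5′ UTR reads in Chx, Harr and WT beside 2029, 185 and 2317 CDS reads. Sdha had 80, 74 and 55 beside 6515, 959 and 4983.

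**Figure D2:**
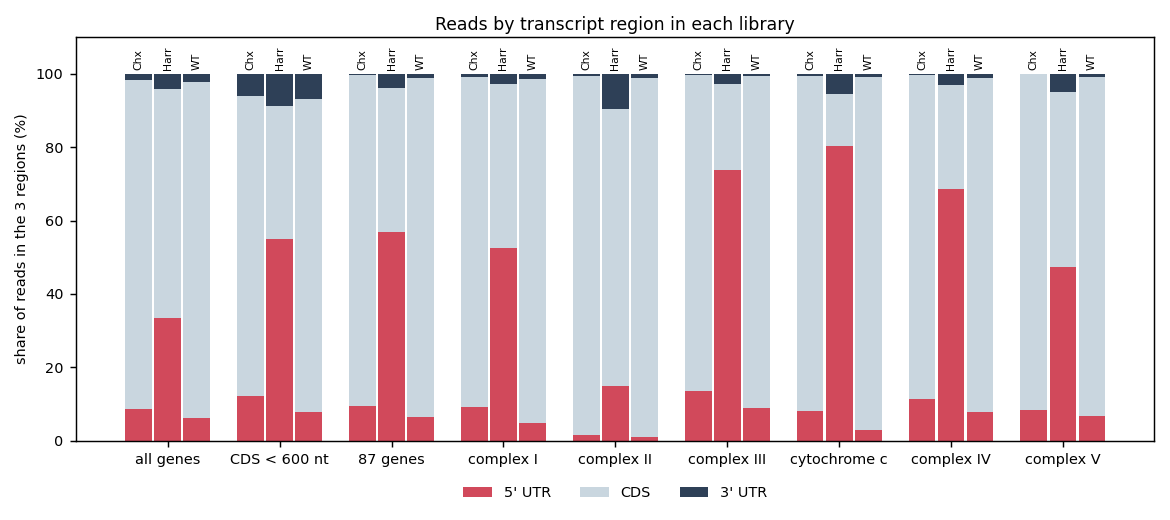
Share of reads (%) by transcript region in the Chx, Harr and WT libraries for all genes, genes with a CDS under 600 nucleotides, the 87 genes and each complex, where each stacked bar sums to 100%. The 5′ UTR part grows in Harr in every group, from 14.8% in complex II to 80.2% for Cycs.

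Harr was compared with Chx and with WT, and both comparisons rest on the same Harr library. The CDS ratio is the log2 ratio of the reads on a CDS per 1000000 CDS reads, with 0.5 reads added. Between Harr and Chx, the median over the 82 members was −1.34 (range −3.04 to 0.44), and 57 were lower in Harr by at least 2-fold, where 14.1% of all 11459 genes and 35.7% of the 1670 passing genes with a CDS under 600 nucleotides were. The median was −0.048 over all genes and −0.68 over genes with a short CDS. At least 4-fold lower were 14 members, where 1.67% of all genes were. No member was higher by 2-fold, where 4.63% of all genes were.

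Both short and long members were lower in Harr. The 60 members with a CDS under 600 nucleotides had a median of −1.56, with 44 lower by at least 2-fold. The 22 with a longer CDS had a median of −1.10, with 13 lower, against a median of 0.04 and 10.4% over all 9789 genes of that length. By complex, 22 of 36 in complex I (median −1.39), 3 of 4 in complex II (−1.30), 8 of 9 in complex III (−1.31), 11 of 15 in complex IV (−1.28) and 12 of 17 in complex V (−1.57) were lower by at least 2-fold. Between Harr and WT, the median of the members was −1.50 (range −3.26 to 0.29) and 58 were lower by at least 2-fold, where 14.7% of all genes and 39.2% of those with a short CDS were. The SE of a member's ratio was 0.085 at the median and 0.48 at most.

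The CDS ratio takes reads in the 5′ UTR as absent. With the reads of the 3 regions added up, the median between Harr and Chx was −0.66, and 35 members were lower by at least 2-fold and 2 higher, where 6.73% and 2.98% of all genes and 14.8% and 6.71% of genes with a CDS under 600 nucleotides were. Uqcrh was then higher in Harr by 1.34 and Cox7a2l by 1.17. Above 0 were 19 of the 82 members, where 6274 of 11459 genes were. Among the 19 were Ndufa4 (0.55) and Uqcrq (0.33), both lower by at least 2-fold on CDS reads. The lowest were Atp5l (−3.23), Ndufa4l2 (−2.95) and Ndufs8 (−2.83), which had almost no 5′ UTR reads to add. By their median the members were therefore lower in Harr on both counts, and by less when all reads on the transcript were included.

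Cycs had the lowest CDS ratio between Harr and Chx. It held 1032, 23 and 994 CDS reads in Chx, Harr and WT, a ratio of −3.04 (SE 0.30). With the 3 regions counted together its ratio was −0.90. Atp5l, the g subunit of the ATP synthase membrane part, held 1559, 42 and 1586 (−2.78, SE 0.22). Both have many near-identical copies, which makes their counts uncertain. Ndufs8 held 3453, 108 and 3184 (−2.57, SE 0.14) with no CDS word found in another gene. Ndufa4l2 held 331, 11 and 320 (−2.43).

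At the other end, 4 members had a CDS ratio above 0 between Harr and Chx, where 47.6% of all genes did. Ndufb3 held 2364, 533 and 2511 CDS reads in Chx, Harr and WT (0.27, SE 0.069). Ndufab1 held 903, 190 and 689 (0.18, SE 0.12), Ndufs6 held 1592, 307 and 1255 (0.05, SE 0.090) and Cox6b2 held 45, 11 and 45 (0.44, SE 0.48). Of the 4, Ndufb3 alone differed from 0 by more than 1.96 SE. Of their CDS words, 46.7% of Ndufb3, 100% of Ndufab1, 41.4% of Ndufs6 and 0% of Cox6b2 occur elsewhere. The copies of Ndufab1 (4299, 167 and 4229 reads) and of Ndufs6 (854, 43 and 832) held few Harr reads, so the direction of both genes depends on where shared reads were placed. All 4 were below 0 when all aligned reads were taken as library size, which shifts the median of all genes by −0.55, and Ndufs6 was also below 0 on its most read transcript.

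The shift of reads within each transcript was measured as the log2 odds ratio of 5′ UTR to CDS reads, called the 5′ UTR:CDS ratio, and given for genes in which both regions held 10 reads or more over the pair of libraries. It does not depend on library size. Between Harr and Chx, 76 members passed, with a median of 3.84 (range 0.74 to 6.76), against 2.46 over all 10723 genes and 3.09 over genes with a CDS under 600 nucleotides. At least 8-fold higher were 60 members, where 31.4% of all genes and 52.5% of those with a short CDS were, and at least 2-fold higher were 75, where 92.1% of all genes were. Between Harr and WT, 75 passed with a median of 4.63, and 69 were at least 8-fold higher, where 57.3% of all genes and 73.2% of those with a short CDS were. None was lower by 2-fold in either comparison, where 0.289% and 0.262% of all genes were. The medians of complexes I to V between Harr and Chx lay between 3.76 and 4.22.

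**Figure D3:**
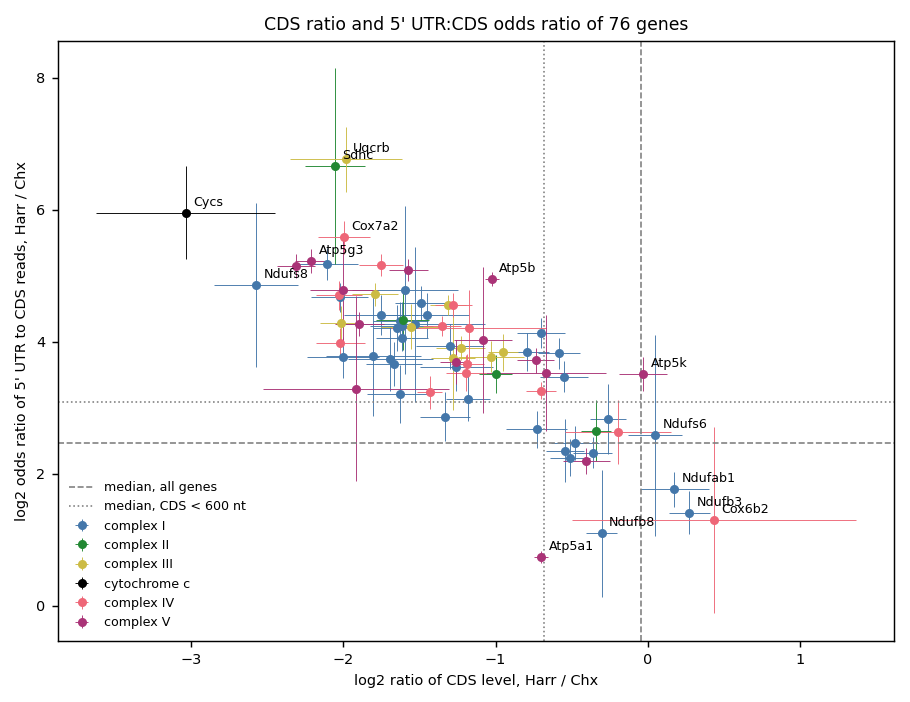
Log2 CDS ratio (horizontal axis) against log2 5′ UTR:CDS odds ratio (vertical axis) between Harr and Chx for the 76 genes that passed both minimums, coloured by complex, with bars of 1.96 standard errors from counts; dashed and dotted lines mark the medians of all genes and of genes with a CDS under 600 nucleotides. Most genes lie to the left of and above both pairs of lines, and Atp5a1, Ndufb8, Ndufb3, Ndufab1 and Cox6b2 lie lowest.

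The members with the 4 highest and 4 lowest 5′ UTR:CDS ratios between Harr and Chx are shown with the sequence around the start codon, since this is where harringtonine holds ribosomes. Each sequence is the sense strand of the transcript from the annotation GENCODE M21 (mm10), with 18 bases of 5′ UTR, the start codon in capitals and 9 bases of CDS. The first 4 had the highest ratios and the last 3 low ratios, and Atp5a1 is named only.
Uqcrb (chr13:66905300-66905329, minus strand): cttcactctcaggtcaaaATGgcgggccga
Sdhc (chr1:171150567-171150596, minus strand): tccaggccggaactcaagATGgctgcgttc
Cycs (chr6:50565649-50565668 and chr6:50566416-50566425, minus strand): gcccggaacgaattaaaaATGggtgatgtt
Cox7a2 (chr9:79759646-79759675, minus strand): ggtaacaaccgagccaagATGttgcggaat
Ndufb8 (chr19:44555390-44555419, minus strand): accgcggagaaggtgaagATGgctgccgcc
Cox6b2 (chr7:4752824-4752853, minus strand): gcaggaattgctacttggATGttgggtgtt
Ndufb3 (chr1:58586655-58586670 and chr1:58591090-58591103, plus strand): gtcagattgctgtcagacATGgctgctgga

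Uqcrb (ENSMUST00000021993.4), a small subunit at the quinone site of complex III, had the highest ratio. It held 91, 469 and 96 5′ UTR reads in Chx, Harr and WT beside 1322, 62 and 1461 CDS reads, a ratio of 6.76 (SE 0.25). Sdhc (ENSMUST00000111336.9) held 4, 20 and 3 beside 4880, 219 and 3962 (6.66, SE 0.76). Cycs (ENSMUST00000161401.1) held 92, 130 and 30 beside its CDS reads (5.95, SE 0.36). Cox7a2 (ENSMUST00000034881.7) held 357, 803 and 366 beside 6048, 283 and 4914 (5.58, SE 0.13). The ratio of Sdhc rests on few 5′ UTR reads. Of the CDS words of Uqcrb, 93.9% occur elsewhere, and 4 copies held 3854, 418 and 4284 reads over their whole transcripts, so its Harr CDS count and its rank depend on where shared reads were placed.

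The 4 lowest ratios had different read patterns. Atp5a1 (0.74, SE 0.050) held 6875, 1318 and 4792 5′ UTR reads in Chx, Harr and WT, and its 5′ UTR overlaps a CDS of the annotation. Of those reads, 6023, 1263 and 3850 lay in exons upstream of the exon with the start codon. Ndufb8 (ENSMUST00000171415.7), an accessory subunit of complex I, held 35, 11 and 5 5′ UTR reads beside 5886, 891 and 5265 CDS reads (1.10, SE 0.49). In Harr 654 of its 891 CDS reads lay in the first CDS segment of 85 nucleotides, against 793 of 5886 in Chx and 590 of 5265 in WT. Its Harr reads were thus gathered just inside the CDS and not before it.

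Cox6b2 (ENSMUST00000182111.7) held 18, 11 and 8 5′ UTR reads (1.30, SE 0.72). Ndufb3 (ENSMUST00000027193.8), another accessory subunit of complex I, held 241, 144 and 202 beside 2364, 533 and 2511 (1.41, SE 0.17). Its start codon lies 2 nucleotides into an exon, as the pair of blocks above shows. Between Harr and WT, Cycs (7.50), Ndufb9 (7.31), Ndufs8 (6.95) and Uqcrb (6.83) were highest and Atp5a1 (0.96), Ndufb3 (1.75), Cox6b2 (2.42) and Ndufab1 (2.68) lowest. The value of Ndufs8 rests on 10 5′ UTR reads in Harr and 2 in WT (SE 1.02).

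A read that begins before the start codon can lie in another exon when the codon stands near an exon's start, so members were grouped by the length of 5′ UTR in the exon of the start codon. In Harr, the 5′ UTR held 15.0% of 5′ UTR and CDS reads in the 6 members with up to 6 nucleotides there, 46.2% in the 15 members with 7 to 30 and 64.0% in the 66 members with 31 or more. Over all genes the shares were 22.9%, 33.7% and 36.2%. In members with under 10% shared words they were 13.4%, 21% and 58.9%, so that the middle group was then below that of all genes. With 31 nucleotides or more the members' share was higher than that of all genes in both sets. Single genes went both ways. Cycs, with 8 nucleotides there, had 85.0% and Cox6b1, also with 8, had 71.3%. Cyc1, with 41, had 6.05%, and Sdha, with 72, had 7.16%.

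**Figure D4:**
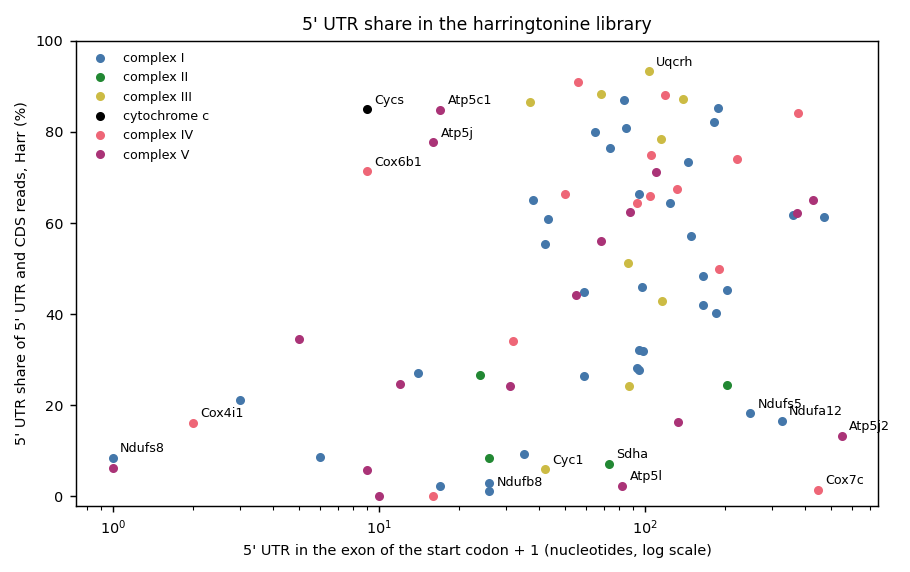
Share of 5′ UTR among 5′ UTR and CDS reads in Harr (%) against the length of 5′ UTR in the exon of the start codon plus 1 (nucleotides, log scale) for 82 genes with at least 10 such reads, coloured by complex. Genes with short pieces lie mostly low, with Cycs, Cox6b1, Atp5j and Atp5c1 as exceptions, while genes with longer pieces range from near 0 to 93.3% (Uqcrh).

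Some low shares belonged to transcripts whose annotated 5′ UTR was hardly read. The longest transcript of Cox7c, a small complex IV subunit, had a 5′ UTR of 445 nucleotides with 2, 1 and 0 reads in the 3 libraries. On its most read transcript, the CDS ratio of Cox7c between Harr and Chx moved from −0.92 to −0.40. Atp5j2 had 547 nucleotides with 21, 27 and 18 reads. Their 5′ UTR:CDS values are therefore uncertain, and whether another start codon was in use was not tested.

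The surroundings of the start codon were not used by the name rule. The letters AAGATGG, the start codon with the bases just around it, were searched on the sense strand at the annotated start after the sequences above had been read. They stood at the start of 16 of the 82 members (19.5%), of 5.35% of 11406 genes, 5.65% of genes with a CDS under 600 nucleotides, 13.9% of 79 cytosolic ribosomal protein genes and 11.5% of 78 mitochondrial ribosomal protein genes. A strong context is a purine 3 bases before the start codon and a G just after it, which AAGATGG also meets. It was found in 46 members (56.1%), 45.6% of all genes and 46.1% of genes with a CDS under 600 nucleotides. Of cytosolic and mitochondrial ribosomal protein genes, 53.2% and 61.5% had it. At least 1 ATG in the 5′ UTR was found in 34 members (41.5%), 54.1% of all genes, 43.5% of genes with a CDS under 600 nucleotides, 41.8% of cytosolic and 39.7% of mitochondrial ribosomal protein genes. In the strong context and the upstream ATG the members lay near the ribosomal protein genes, while their share with AAGATGG was higher.

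The strong context did not go with a higher ratio. The median 5′ UTR:CDS ratio between Harr and Chx was 3.76 in the 42 passing members with a strong context and 4.17 in the other 34. It was 3.84 with an ATG in the 5′ UTR and 3.82 without. The members' transcripts were compact, with median lengths of 111.5 nucleotides of 5′ UTR and 193 of 3′ UTR, against 198 and 1309 over all genes. Cytosolic ribosomal protein genes (121 and 173) were as compact, and mitochondrial ones had 91.5 and 402.

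Between Chx and WT, the question was whether a short cycloheximide treatment before harvest moved footprints on these genes. The CDS levels stayed close, with a median log2 ratio of −0.12 (range −0.76 to 0.39) against 0.03 over all genes. None of the 82 differed by 2-fold, where 0.201% of all genes were higher and 0.122% lower. The lowest were Cox7c (−0.76), Uqcr11 (−0.54), Ndufb4 (−0.53) and Ndufa4 (−0.51), and among the highest were Ndufa6 (0.39), Cox4i1 (0.31) and Ndufs7 (0.16). The order followed CDS length in part, with a median of −0.22 in the 60 members with a CDS under 600 nucleotides and 0.02 in the 22 longer ones (Spearman's rho 0.54 across 82 genes of the same libraries). Genes with a short CDS as a whole had a median of −0.08.

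The median 5′ UTR:CDS ratio between Chx and WT was 0.75 over 74 members, against 0.67 over all genes. At least 2-fold higher in Chx were 24 members, where 34.7% of all genes were, a share near the background. Ndufb9, an accessory subunit of complex I, stood out with 1868, 1904 and 158 5′ UTR reads in Chx, Harr and WT beside 4682, 285 and 3773 CDS reads (3.25, SE 0.12). Ndufb8 (2.53), Ndufs8 (2.08) and Atp5g2 (2.02) followed, each with 5 or fewer 5′ UTR reads in WT. Ndufa12 (−1.49) was the only member lower by 2-fold, where 1.85% of all genes were, from 8 reads in Chx and 20 in WT in a 5′ UTR that overlaps a CDS of the annotation, and Atp5j (−0.49), Cox7a2 (−0.34) and Atp5s (−0.33) were the next lowest.

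The 3′ UTR, the region after the stop codon of the transcript used, was compared in the same way. The median 3′ UTR:CDS ratio between Harr and Chx was 5.92 over 66 members, with 63 higher by at least 2-fold, where 88.9% of all genes were (median 3.76). Between Harr and WT the median was 3.25 over 73 members, with 67 higher by 2-fold, where 84% of all genes were. Between Chx and WT it was −2.31 over 69 members, with 60 lower by 2-fold in Chx, where 47.8% of all genes were (median −0.93). Atp5b had 36, 493 and 275 3′ UTR reads in Chx, Harr and WT, and Ndufs1 had 0, 59 and 20. The minimum of 10 reads applied to each pair together, so a member could pass through a single library. Ndufs8, with 0, 12 and 25 3′ UTR reads, and Ndufv2, with 0, 16 and 10, passed between Harr and Chx through Harr alone. The 0.5 added reads set much of such ratios. With no minimum, the 3′ UTR held 0.412%, 3.75% and 1.10% of the members' reads in Chx, Harr and WT. The rise of the 5′ UTR in Harr was therefore not particular to that region, although the 5′ UTR held 51609 of the members' Harr reads and the 3′ UTR 3400.

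A few members did not follow. Ndufa12 had 461, 23 and 476 3′ UTR reads in Chx, Harr and WT, Ndufs6 had 223, 35 and 291, and Ndufa11 had 303, 13 and 161. Their 3′ UTR:CDS ratios between Harr and Chx were −0.28, −0.28 and −0.44, and they are the 3 passing members that did not rise by 2-fold. The 3′ UTR of each overlaps a CDS of the annotation, so reads of these regions cannot be told apart there. These genes were singled out after their values were seen.

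Complexes I, III, IV and V combine nuclear-encoded subunits with 13 subunits made by mitochondrial ribosomes, which these drugs are not known to inhibit. All 13 had a higher CDS level in Harr than in Chx, by 1.14 (mt-Nd6) to 2.21 (mt-Atp8) on the log2 scale. mt-Co1, the catalytic subunit of complex IV, held 7455, 3667 and 6177 CDS reads in Chx, Harr and WT (1.40, SE 0.029). mt-Cytb of complex III held 3273, 1485 and 2643 (1.28, SE 0.045). These levels are relative to each library's CDS reads on the 20823 genes, which hold none of the 13.

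The density of the mitochondrially encoded CDSs over that of the nuclear-encoded CDSs of the same complex was, for complex I, 0.149 in Chx, 0.801 in Harr and 0.158 in WT. For the others it was 0.338, 2.17 and 0.311 for complex III, 0.263, 1.82 and 0.241 for complex IV and 0.108, 0.725 and 0.117 for complex V. Over all 87 genes, complex II and Cycs included, it was 0.201, 1.21 and 0.200. The CDS reads of the 87 genes thus fell against the mitochondrial ones by 2.58 (SE 0.019) on the log2 scale between Chx and Harr. The fall was 2.60 between WT and Harr, and Chx and WT differed by −0.013 (SE 0.015). With members of under 10% shared words only, these values were −2.53, −2.45 and 0.075. With UTR reads added, the 87 genes held 487039, 90654 and 414214 reads in Chx, Harr and WT. The mitochondrial CDSs held 21421, 10428 and 18534, so the fall in Harr was then smaller. In Chx and WT, nuclear-encoded CDSs were denser than mitochondrial ones in all 4 complexes, and in Harr this held for complexes I and V only.

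**Figure D5:**
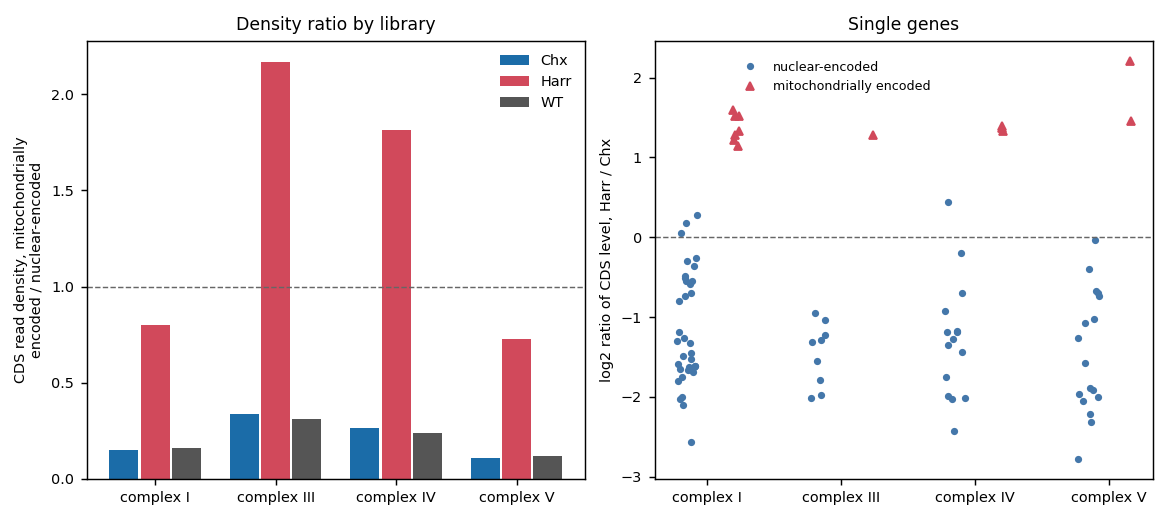
Left, CDS read density of the mitochondrially encoded over the nuclear-encoded genes of complexes I, III, IV and V in Chx, Harr and WT, where the dashed line marks equal density; right, log2 CDS ratio between Harr and Chx of each nuclear-encoded (circles) and mitochondrially encoded (triangles) gene, spread sideways for display. All 13 mitochondrial genes lie above 0 (1.14 to 2.21), and the nuclear-encoded genes range from −2.78 to 0.44.

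Other genes of the pathway and of its translation were read beside the members. The median CDS ratio between Harr and Chx was −0.49 for 46 assembly factors, of which 11 were lower by at least 2-fold, where 14.1% of all genes were. It was −0.75 for 16 genes of pyruvate dehydrogenase and the citric acid cycle (2 lower), −0.78 for 78 mitochondrial ribosomal proteins (25 lower) and −0.33 for 8 transcriptional regulators of the pathway (1 lower). The matrix enzymes and the regulators, with 12.5% lower each, were not above the background. Among genes with a CDS under 600 nucleotides, 35.7% were lower. The mitochondrial ribosomal proteins, with a median CDS of 577.5 nucleotides, were not above that share. The median CDS ratio was −1.57 for 79 passing cytosolic ribosomal proteins (56 lower, 1 higher), the list with a median nearest to that of the members. The median 5′ UTR:CDS ratios of the same lists were 3.15, 3.31, 3.09, 2.76 and 3.92, against 3.84 for the members.

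Single genes of these lists spread widely. Among assembly factors, Nubpl, which inserts iron-sulfur clusters into complex I, held 130, 5 and 117 CDS reads in Chx, Harr and WT (−2.15), and Atpaf2, an assembly factor of F1, held 289, 12 and 211 (−2.11). Surf1, an assembly factor of complex IV, held 935, 300 and 764 (0.78), and Sdhaf1 of complex II held 186, 54 and 109 (0.65). Of the matrix enzymes, Mdh2 (−1.81) and Pdhb (−1.43) were lowest and Pdha1 (0.17) and Ogdh (0.14) highest. The mitochondrial ribosomal proteins ranged from Mrpl16 (−1.98) and Mrpl23 (−1.76) to Mrps33 (0.56) and Mrps36 (0.87).

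Among cytosolic ribosomal proteins, Rps29 held 27, 0 and 73 CDS reads in Chx, Harr and WT and Rpl23a held 202, 4 and 157, while Rpl39 (0.76) and Rpl41 (1.30), the genes of very short proteins, were highest. Of the regulators, Tfam, which binds and maintains mitochondrial DNA, held 450, 29 and 382 (−1.51) and Esrra held 641, 66 and 457 (−0.85). Ppargc1a, the coactivator of mitochondrial biogenesis, held 708, 225 and 798 (0.77), and Ppargc1b held 150, 36 and 104 (0.38).

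Many of these genes have processed copies in the genome, and a footprint from a shared stretch cannot be placed. Each CDS was cut into overlapping words of 25 nucleotides, the shortest read kept, and these were looked up in the transcripts of all other genes. In 28 members no word occurred elsewhere and in 49 under 10% did. In 17 at least 50% did, and in 6 (Atp5g1, Atp5g2, Atp5l, Ndufab1, Ndufb4 and Cycs) every word did. Untranscribed copies in the genome were not searched.

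The copies held many reads, counted over the whole transcript of each copy. For Cycs, 6 copies that each share at least 25% of its words held 5425, 991 and 5598 reads in Chx, Harr and WT, beside 1132, 162 and 1032 on the 3 regions of Cycs and 1032, 23 and 994 on its CDS. Of the copies, Gm10053, which is annotated as protein-coding and holds the whole CDS, had 2158, 761 and 2124. For Atp5l, 10 copies held 12653, 1456 and 10455 beside 1561, 44 and 1598 on the 3 regions of Atp5l. The copies of Atp5l kept more of their reads in Harr than Atp5l did, while for Cycs the gap was small once its UTR reads were included. For Ndufab1, 2 copies held 4299, 167 and 4229 beside 1961, 947 and 1117 on its 3 regions, the opposite order.

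The lower CDS ratio and the higher 5′ UTR:CDS ratio in Harr were also found without the shared members. In the 44 passing members with under 10% shared words, the median CDS ratio between Harr and Chx was −1.27 with 27 lower by at least 2-fold, and the median 5′ UTR:CDS ratio was 3.80 over 42. In the 21 members with 10% to 50% they were −1.28 and 3.77, and in the 17 with more they were −1.59 and 4.22. The Harr 5′ UTR share of members' reads was 48.6% in the members with under 10% shared words, lower than the 56.9% of all, and their median CDS ratio between Chx and WT was −0.043.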

How the data were processed

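The authors deposited 9 tables of raw counts, 1 for each library and region, made with Plastid per the file headers. Reads of 25 to 100 nucleotides, aligned to mm10 and cleared of ribosomal reads and duplicates, were counted at their 5′ end with no offset. The headers name no aligner. The study's methods give Rsubread for Plastid counts of its other ribosome profiling libraries and TopHat on the transcriptome, keeping reads with many placements, for its search for open reading frames. Which of these made the tables, and how reads shared between copies were placed, is not given in the sources used here. Removal of duplicates can lower the counts of short, densely read CDSs most, and its effect was not tested.

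The deposited counts of exon segments were summed over the longest transcript of each gene with all 3 regions, following the study's methods. Identifiers were joined to GENCODE M21 symbols (99.07% of 142446 matched with their version). CDS ratios and 5′ UTR:CDS and 3′ UTR:CDS odds ratios used 0.5 added reads and standard errors from counts. They were computed for all genes and checked on simulated counts. With 1 library per treatment there was no test. Intervals are Wilson 95% intervals for counting error, and a count of 0 was given a floor of 3 reads.

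Genes were named by rule: the 3 densest and the least dense of each complex in WT, the 4 highest and 4 lowest members of each ratio and pair, paralog groups, complex I core, complex II, F1 subunits, the 5 members with most shared words (6 with ties), and the 2 highest and 2 lowest genes of each list. The values of 1 member are not reported here by name, and it stays in the counts and medians. Genes outside this rule are named as examples, chosen after their values were seen. Members and lists were chosen with earlier results of these data known. The alternatives were the most read transcript, 4 other library sizes, minimum counts, a pseudocount of 5, members with few shared words, UTRs that overlap no CDS and a background of short CDSs. Counting the 3 regions together was added after seeing the data. Python 3.11.15, numpy 2.4.6, pandas 2.3.3, SciPy 1.17.1 and matplotlib 3.10.9 were used.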

Additional observations from a re-analysis of the deposited data

How the results depend on the processing

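No paired analysis was possible because each treatment has 1 library, and for the same reason no library could be left out. Of the summary medians and pooled changes of at least 2-fold, none changed direction under the alternatives run. The medians and counts moved little with a pseudocount of 5, other minimum counts or median-of-ratios size factors. Single members did change direction with the 3 regions counted together. Between Harr and Chx, Ndufa4 went from −1.75 to 0.55 and Uqcrq from −1.79 to 0.33. With all aligned reads as library size, the members' share was 1.23% (Chx), 0.365% (Harr) and 1.27% (WT). The median CDS ratios were then −1.89 (Harr and Chx) and −2.01 (Harr and WT), those of the lists −1.03 (assembly factors), −1.29 (matrix enzymes), −1.32 (mitochondrial ribosomal proteins) and −2.12 (cytosolic ribosomal proteins), and the WT densities of complexes I to V 177, 256, 284, 393 and 461. That scaling shifts all genes by −0.55 and −0.51. With mitochondrially encoded reads as library size the medians were −2.72, −2.81 and −0.050 (Chx and WT), and all genes shifted by −1.38, −1.31 and 0.07. Without the 50 most read genes the shares were 2.06%, 0.858% and 2.24%.

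With the most read transcript, the 5′ UTR shares were 8.55%, 57.6% and 5.61%, the WT share of CDS reads 2.28%, and the WT densities of complexes IV and V 609 and 668. With only UTRs that overlap no CDS the 5′ UTR shares were 8.71%, 59.2% and 5.55%. Members with under 10% shared words are fewer, so that their shares (1.47%, 0.665% and 1.46%) and counts are smaller by construction: 27 and 26 lower by 2-fold in CDS ratio (Harr and Chx, Harr and WT), 31 and 38 at least 8-fold higher in 5′ UTR:CDS ratio, 35 and 38 higher in 3′ UTR:CDS ratio, and 37 lower in it between Chx and WT. Their 5′ UTR shares were 8.15%, 48.6% and 5.28%, their median CDS ratio between Chx and WT −0.043, their WT densities 314 (complex III), 6.39 (IV) and 1127 (V), and the nuclear over mitochondrial changes −2.53, −2.45 and 0.075. The last of these was −0.013 over all members and so changed sign, the shares of Chx and WT changed order, and complex III fell below complexes I and II in density. Complex IV loses its densest genes there, and the near-silent isoforms remain.

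Against genes with a CDS under 600 nucleotides the background medians were −0.68 and −0.75, and the shares called 35.7%, 39.2% and 0.659% for CDS ratios and 52.5% for the 5′ UTR:CDS ratio between Harr and Chx. With the 3 regions counted together, an alternative chosen after seeing the data, the members' shares were 2.16%, 1.50% and 2.28%, the medians −0.66 and −0.69, and 35 and 36 members were lower by 2-fold. Copies outside annotated transcripts were not searched. The 11 to 23 Harr reads of Cox6b2, Ndufa4l2, Atp5g2 and Cycs limit their ratios.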

Other observations

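Within the CDS, the position of the reads also differed between the libraries. In the 71 members with separate first and last CDS segments, the first segment made up 13.8% of the CDS nucleotides and held 29.5% of CDS reads in Harr (Wilson 95% interval 29.0 to 30.0), 16.9% in Chx (16.8 to 17.0) and 13.4% in WT (13.2 to 13.5). The last segment made up 15.3% of the nucleotides and held 16.5%, 13.8% and 18.9% of the reads. Genes with a CDS under 600 nucleotides gave 36.0%, 19.3% and 15.3% for the first segment, which was 20.0% of their nucleotides. The first segment was thus the richest in Harr in both sets, and the last segment held a larger share in WT than in Chx in both, with 20.1% in Chx and 23.7% in WT for the short CDSs.

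Some members showed the opposite pattern in their first CDS segment. Atp5b held 6275 of 45022 CDS reads there in Chx, 175 of 4130 in Harr and 3830 of 34665 in WT. In the same order, Atp5a1 held 3469 of 35067, 127 of 4032 and 3316 of 28417. Ndufs1 held 356 of 4306, 19 of 670 and 282 of 3503. In each of these genes the first segment held its smallest share in Harr. The genes were chosen after their values were seen, and with 1 library per treatment the pattern has no replicate check.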
